A study of Rattus norvegicus with 6 samples.

Results

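The gonadotropin and steroid hormone receptors are the proteins through which the ovary senses follicle-stimulating hormone, luteinising hormone, oestrogen, progesterone and glucocorticoid. The set was defined by gene name and not by signal. It lists 7 genes, Fshr, Lhcgr, Esr1, Esr2, Pgr, Pgrmc1 and Nr3c1, and takes every probe set whose only gene symbol in the array annotation is one of them. It held 8 probe sets of 6 genes, among 31042 probe sets other than array controls and 14217 genes named by a single symbol. No probe set carried the name of Fshr, the receptor of follicle-stimulating hormone, so that gene was not analysed here. Lhcgr and Nr3c1 each had 2 probe sets and the other 4 genes had 1.

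RNA came from whole ovaries of 4-day-old female Sprague-Dawley rats, kept for 48 h in organ culture on floating filters. The NT3 group of 3 arrays received 50 ng/ml of recombinant human NT3, a neurotrophin, and the control group of 3 arrays received no factor. Both groups shared the medium, which held bovine albumin, albumax, ascorbic acid and transferrin, with antibiotics, and the labels name no gonadotropin or steroid among its additions. Each array was hybridised with RNA from 2 to 3 ovaries. The labels name the replicates as biological but do not state whether each had its own animals or litter, and every p-value here therefore covers the spread among these 6 samples alone. In whole ovaries, fewer cells of a type and less RNA per cell cannot be told apart.

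Lhcgr is a G protein-coupled receptor of the cell surface that raises cyclic AMP. In the rodent ovary it marks theca cells and, later, the granulosa cells of large antral follicles. Esr1 and Esr2, the oestrogen receptors alpha and beta, and Pgr and Nr3c1, the progesterone and glucocorticoid receptors, are nuclear receptors held by chaperones until hormone binds, and Esr2 is best known in granulosa cells. Pgrmc1 belongs to another family, the haem-binding membrane proteins, and has been linked to non-genomic progesterone responses in granulosa cells.

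The start regions of Lhcgr, Esr1 and Esr2 are shown because these are the 3 genes whose lead probe set read lower in NT3 than in the control array of the same number for all 3 numbers. Each covers 250 bases before and 50 after the annotated start in RefSeq's GRCr8 assembly, 5′ to 3′ on the gene's strand. Lhcgr lies at chr6:11415165-11415464 (plus strand), Esr1 at chr1:43641845-43642144 (plus strand) and Esr2 at chr6:100644660-100644959 (minus strand). Capitals mark the GC box GGGCGG, the E-box CACGTG and GGTCA, the core of many nuclear receptor sites, searched on both strands. RefSeq held a start region for all 7 listed genes.
Lhcgr: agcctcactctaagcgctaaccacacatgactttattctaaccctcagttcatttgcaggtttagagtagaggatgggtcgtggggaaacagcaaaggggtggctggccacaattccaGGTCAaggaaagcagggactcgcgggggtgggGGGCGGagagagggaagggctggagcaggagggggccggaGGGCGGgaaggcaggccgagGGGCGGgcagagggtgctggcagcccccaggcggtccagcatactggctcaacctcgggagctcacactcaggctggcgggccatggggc
Esr1: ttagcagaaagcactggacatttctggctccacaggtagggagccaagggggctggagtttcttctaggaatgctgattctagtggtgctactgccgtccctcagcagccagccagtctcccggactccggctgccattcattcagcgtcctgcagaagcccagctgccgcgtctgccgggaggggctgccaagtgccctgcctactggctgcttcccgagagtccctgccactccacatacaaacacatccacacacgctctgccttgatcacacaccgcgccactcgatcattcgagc
Esr2: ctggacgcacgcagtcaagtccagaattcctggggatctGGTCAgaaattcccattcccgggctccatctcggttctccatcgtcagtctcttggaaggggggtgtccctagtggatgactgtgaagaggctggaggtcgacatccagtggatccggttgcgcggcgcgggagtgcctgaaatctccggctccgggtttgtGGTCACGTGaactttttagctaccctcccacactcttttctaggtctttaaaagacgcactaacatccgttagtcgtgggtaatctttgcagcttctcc
Lhcgr held 3 GC boxes, starting 100, 60 and 40 bases before the start, and 1 GGTCA core, and GC boxes occurred in 33.1% of all 33469 start regions. Factors of the Sp1 family are known to bind GC boxes of the rat Lhcgr promoter. Esr2 held 1 E-box, 46 bases before the start, and 2 GGTCA cores, one of which overlaps the E-box. E-boxes occurred in 6.42% and GGTCA in 40.5% of all start regions. Esr1 held none of these 3 letter strings in its window. A match is a string of letters and no evidence of binding in these ovaries.

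Signals were scaled by the authors to the same trimmed mean on every array, 210.1, and are linear and relative. A probe set was tested when its mean log2 signal reached the 40th percentile of all probe sets, which is a signal of 41.3. This filter stands in for detection calls, which were not used here, and passing it does not by itself show that a transcript was detected. Of the 8 receptor probe sets, 3 were tested, 1 each of Lhcgr, Pgrmc1 and Nr3c1, and 5 lay under the filter. The Lhcgr probe set stood just inside, at a geometric mean signal of 42.8, and the second Nr3c1 probe set just outside, at 34.4. No receptor probe set was listed at 0 on any array. Values under the filter come from the same fit on all 31042 probe sets and are descriptions.

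No receptor probe set passed the test. By limma with Benjamini-Hochberg adjustment, 0 of the 3 tested receptor probe sets had an adjusted p under 0.05, against 0 of 18625 tested probe sets, or 0%. At an unadjusted p under 0.05 there were 0 of the 3, against 240 of 18625, or 1.29%. That share lay below the nominal level of 0.05, and the count was 656 without control replicate 2. The lack of calls does not show that no gene changed. With no filter the count of adjusted calls was 0 of 31042 probe sets, or 0%, and 0 of the 8 receptor probe sets. Groups of 3 arrays that do not overlap have an exact 2-sided permutation p of 0.1, the smallest that 3 against 3 allows.

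One array stood apart in RNA quality. Control replicate 2 had a 3′ to 5′ signal ratio of 6.83 for beta-actin and 1.70 for Gapdh. The other 5 arrays lay at 2.78 to 2.91 in NT3 and at 2.42 and 2.60 in the other controls for beta-actin, and at 1.21 to 1.25 in NT3 and 1.09 and 1.14 in those controls for Gapdh. The ratios of all 3 NT3 arrays were thus also above those of control replicates 1 and 3.

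**Figure D1:**
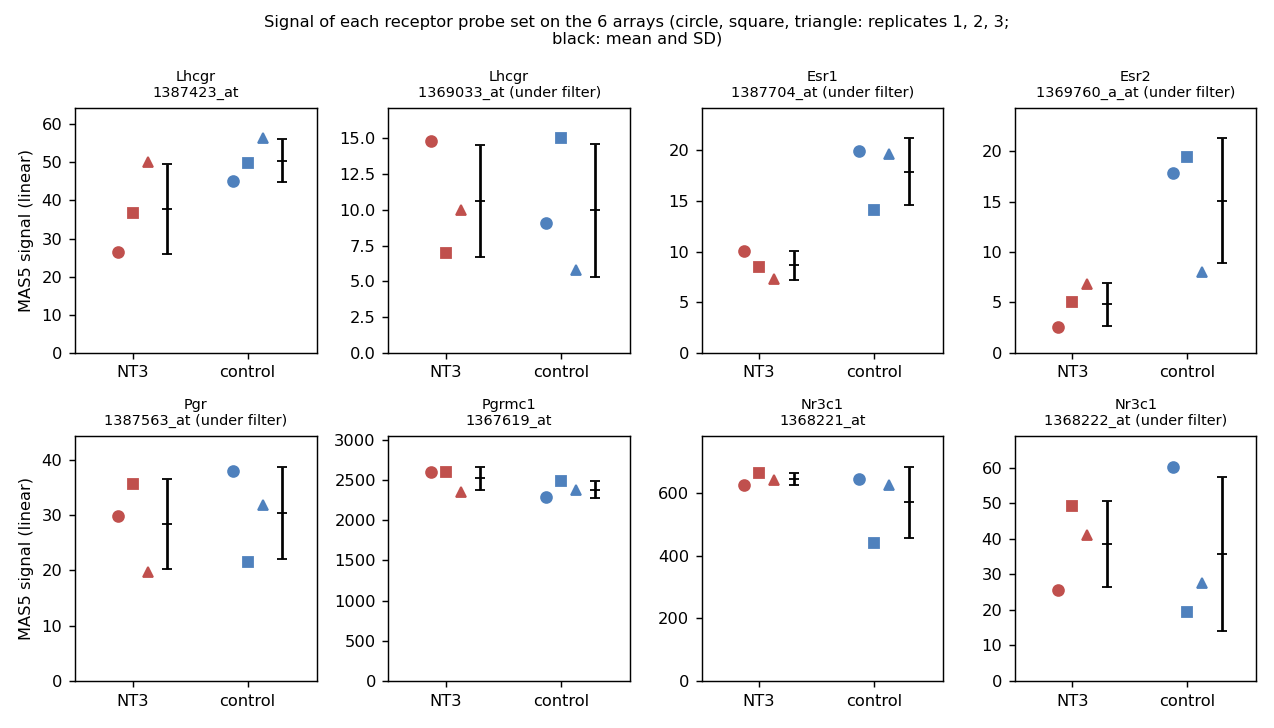
MAS5 signal (linear, from 0) of each receptor probe set on the 6 arrays, with NT3 left of control, replicates 1, 2 and 3 as circles, squares and triangles, and the mean and SD in black. Esr1 and Esr2 have all 3 NT3 arrays below all 3 control arrays at signals under 20, and the first Nr3c1 probe set has 1 low array, control replicate 2 at 439.6.

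Among the gonadotropin receptors only Lhcgr had probe sets. Its tested probe set, 1387423_at, had signals of 26.5, 36.6 and 50.0 in NT3 replicates 1 to 3 and 45.1, 49.8 and 56.3 in control replicates 1 to 3. NT3 replicates 1 and 2 were below every control array, while NT3 replicate 3 lay above 2 of the controls, so the groups overlapped. The means were 37.7 ± 11.8 in NT3 and 50.4 ± 5.62 in control (SD, n = 3 each). The log2 fold change was -0.46 ± 0.28 (SE), with a 95% interval of -1.10 to 0.18 and an adjusted limma p of 1.00. The differences between arrays of equal number were -0.77, -0.44 and -0.17 on the log2 scale. It was -0.47 without control replicate 2. Leaving out NT3 replicate 1, the lowest array, gave a log2 fold change of -0.23, and leaving out NT3 replicate 3 gave -0.69.

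The second Lhcgr probe set, 1369033_at, was annotated with the same transcript accession and lay under the filter. Its signals were 14.8, 7.0 and 10.0 in NT3 and 9.1, 15.0 and 5.8 in control. The groups overlapped throughout, and the highest array in each group was a different replicate number. Its log2 fold change was 0.13 ± 0.60 (SE), opposite in sign to the first, and its interval of -1.23 to 1.49 included the value of the first probe set. The value was 0.48 without control replicate 2, and its direction turned when NT3 replicate 1 or control replicate 3 was left out.

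Both oestrogen receptors had lower signals on every NT3 array than on any control array, at levels under the filter. Esr1, read by 1387704_at, had signals of 10.1, 8.5 and 7.3 in NT3 and 19.9, 14.1 and 19.7 in control. The lowest control array, control replicate 2, stood above the highest NT3 array, NT3 replicate 1. The means were 8.63 ± 1.40 in NT3 and 17.9 ± 3.29 in control (SD, n = 3 each). The log2 fold change was -1.05 ± 0.48 (SE), with a 95% interval of -2.13 to 0.03 and an adjusted limma p of 1.00 in the fit with no filter. It was -1.21 without control replicate 2, and between -1.17 and -0.93 with any other single array left out. The 3 differences between arrays of equal number were -0.98, -0.73 and -1.43.

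Esr2, read by 1369760_a_at, had signals of 2.6, 5.0 and 6.8 in NT3 and 17.9, 19.4 and 8.0 in control. Control replicate 3 stood close to the NT3 arrays, and the other controls were well above them. The means were 4.80 ± 2.11 in NT3 and 15.1 ± 6.19 in control (SD, n = 3 each). In the fit its log2 fold change was -1.66 ± 0.66 (SE), with a 95% interval of -3.15 to -0.16. The unadjusted limma p was 0.0332 and the adjusted p 1.00 in the fit with no filter. Fitted with a replicate block, the SE was 0.73 and the unadjusted limma p 0.0551, so the interval then included 0. Between arrays of equal number the differences were -2.78, -1.96 and -0.23, so the pair numbered 3 had little of it. Single arrays left out gave values between -2.06 and -1.27, and without control replicate 2 the value was -1.43.

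These 2 were the receptor probe sets whose groups did not overlap, out of 5 under the filter, and none of the 3 tested ones did so. Over the 12417 probe sets under the filter, 5.9% had every NT3 array below every control array and 3.26% had every NT3 array above. Over the tested probe sets these shares were 3.21% and 2.62%. Under the filter, 2.71% had an unadjusted limma p under 0.05 with a lower value in NT3, as Esr2 did. With 16 added to each signal before log2, which damps ratios of low signals, the log2 fold changes were -0.46 ± 0.17 for Esr1 and -0.56 ± 0.20 for Esr2 (SE). The RNA quality ratios of the NT3 arrays lay above those of control replicates 1 and 3 and below those of control replicate 2. Their part in these values was not tested.

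Pgr, read by 1387563_at, also lay under the filter. Its signals were 29.8, 35.6 and 19.6 in NT3 and 37.9, 21.4 and 31.8 in control. The lowest array of all was NT3 replicate 3 and the highest control replicate 1, with the others interleaved. Its fitted log2 fold change was -0.10 ± 0.39 (SE), with a 95% interval of -0.99 to 0.78. It was -0.34 without control replicate 2 and turned to 0.14 without NT3 replicate 3 and to 0.08 without control replicate 1.

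Pgrmc1 had the narrowest interval of the receptors. Probe set 1367619_at had signals of 2605.1, 2603.4 and 2351.8 in NT3 and 2283.5, 2483.4 and 2377.4 in control. NT3 replicates 1 and 2 were above all controls, NT3 replicate 3 was below 2 of them, and the groups overlapped. The means were 2520 ± 146 in NT3 and 2381 ± 100.0 in control (SD, n = 3 each). The log2 fold change of 0.08 ± 0.09 (SE) had a 95% interval of -0.13 to 0.29, or 0.915-fold to 1.22-fold, at an adjusted limma p of 1.00. It lay between 0.05 and 0.13 with single arrays left out, and was 0.11 without control replicate 2.

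Nr3c1 turned on a single array. Its tested probe set, 1368221_at, had signals of 625.8, 663.7 and 643.3 in NT3 and 646.3, 439.6 and 626.1 in control. Control replicate 2 was low and the other 5 arrays lay between 625.8 and 663.7. The means were 644 ± 19.0 in NT3 and 571 ± 114 in control (SD, n = 3 each). The fitted log2 fold change was 0.20 ± 0.15 (SE), with a 95% interval of -0.15 to 0.54 and an adjusted limma p of 1.00. It was 0.02 ± 0.09 once control replicate 2, whose quality ratios stood apart, was left out. Pgrmc1 on that array lay inside the range of the other 5. Whether RNA quality set the low Nr3c1 value was not tested.

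The second Nr3c1 probe set, 1368222_at, annotated with another transcript accession, lay under the filter with signals of 25.5, 49.1 and 41.1 in NT3 and 60.3, 19.4 and 27.5 in control. Control replicate 2 was again the lowest array, but control replicate 1 was the highest, so the arrays did not keep the order of the first probe set. On the log2 scale the fold change was 0.23 ± 0.47 (SE), and -0.13 without control replicate 2.

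**Figure D2:**
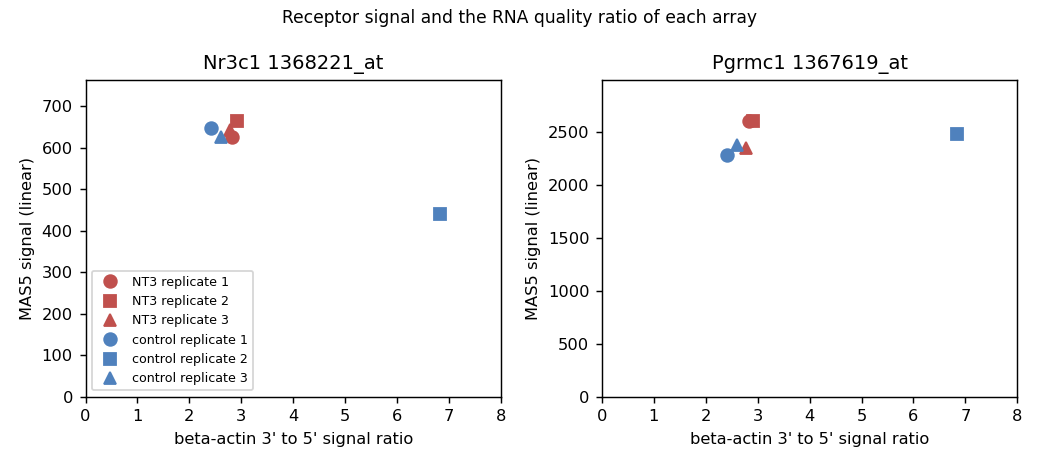
Signal of the tested Nr3c1 and Pgrmc1 probe sets (vertical axes, MAS5 signal, linear, from 0) against the beta-actin 3′ to 5′ signal ratio of each array (horizontal axes), with NT3 in red and control in blue. Control replicate 2 sits alone at a ratio of 6.83, where Nr3c1 is at 439.6 and Pgrmc1 at 2483.4.

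**Figure D3:**
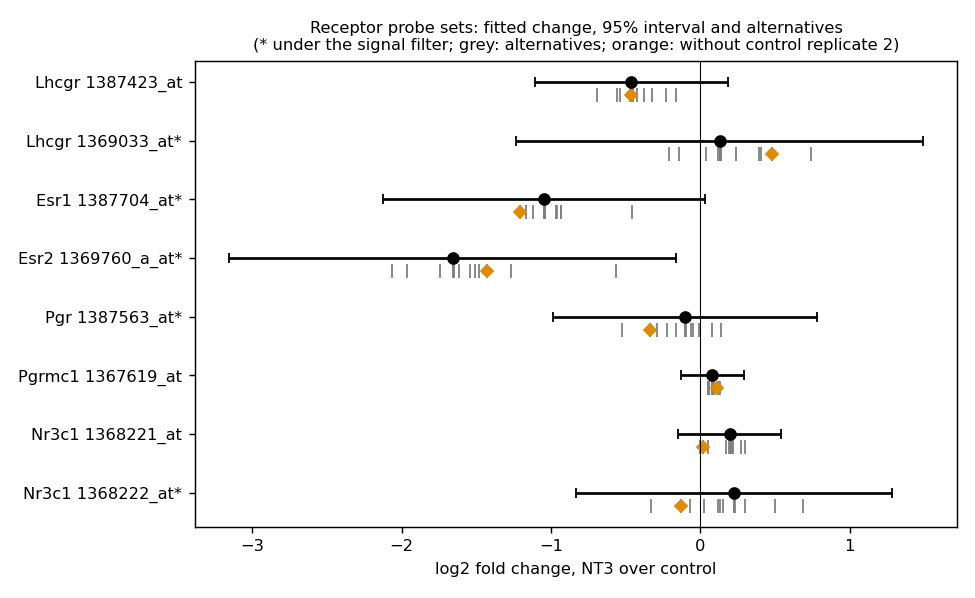
Log2 fold change of NT3 over control for the 8 receptor probe sets, with 95% intervals (black), the alternatives (grey ticks) and the value without control replicate 2 (orange). Of the 8 intervals, only that of Esr2, from -3.15 to -0.16, stays clear of 0. This holds before any adjustment, without the replicate block and with the intensity trend, settings on which the SEs depend.

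The genes with the signal pattern most like each tested receptor were found among 10538 named, tested genes by the root mean square difference of gene-centred log2 signals over the 6 arrays. For Nr3c1 these were Evi2a, a gene first known as a viral integration site, at 0.018 and Narf, whose product binds prelamin A, at 0.026. Both shared the low control replicate 2, with Evi2a at 83.4 there and 118.0 to 128.8 on the other arrays. For Pgrmc1 they were Cyc1, the cytochrome c1 gene, at 0.024 and C15h14orf119 at 0.025. For Lhcgr they were Adat3, a tRNA deaminase subunit gene, at 0.110 and Rasgef1b at 0.129. The pattern of Lhcgr thus had less close matches than those of Nr3c1 and Pgrmc1, whose signals vary less. Likeness over 6 arrays includes the array that stands apart and says nothing of shared control.

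Among the other receptors for steroids and related hormones no member passed the test. Of 17 listed, 16 were in the annotation and 10 were tested, with 4 showing a higher and 6 a lower NT3 value. The median log2 fold change was -0.06, against -0.00054 over all tested probe sets, of which 49.8% were higher. Without control replicate 2 the median was 0.08. Pgrmc2, the paralogue of Pgrmc1, had a log2 fold change of 0.06 ± 0.13 (SE), and Paqr8, a membrane progestin receptor gene, had -0.06 ± 0.17. The thyroid hormone receptor genes Thra and Thrb had -0.05 ± 0.22 and -0.18 ± 0.14. Paqr8 and Thra turned to 0.09 and 0.14 without control replicate 2.

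Of the orphan receptors related to the oestrogen receptors, Esrra and Esrrb were tested. Esrra had signals of 25.1, 68.1 and 49.1 in NT3 and 30.7, 77.9 and 47.7 in control, which overlapped, at a log2 fold change of -0.15 ± 0.44 (SE), or 0.19 without control replicate 2. It is named outside the rule, after its values were seen. Esrrb had signals of 45.2, 59.1 and 59.2 in NT3 and 65.2, 64.5 and 67.8 in control, at a log2 fold change of -0.28 ± 0.21 (SE). Esrrg, under the filter and named here after its values were seen, had 28.8, 24.8 and 27.9 in NT3 and 21.3, 19.3 and 19.3 in control, at 0.44 ± 0.35. All NT3 values lay under all control values for Esrrb, as for 3.21% of tested probe sets. They lay over them for Esrrg, as for 3.26% of probe sets under the filter. None of the 3 had an adjusted limma p under 0.05.

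The hormones that act on Fshr and Lhcgr are made in the pituitary. Of the 4 gonadotropin subunit and releasing hormone genes, 2 were tested. The subunit genes Lhb and Cga had log2 fold changes of 0.05 ± 0.25 and 0.06 ± 0.24 (SE). Without control replicate 2 they had 0.25 and 0.18. Their signals were low, with means of 59.9 in NT3 and 58.8 in control for Lhb. Cga had 43.0 and 41.8, close to the filter at 41.3, as the tested Lhcgr probe set was.

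Below the gonadotropin receptors, 27 of 35 listed genes of cyclic AMP signalling were tested, with 17 higher and 10 lower. Their median was 0.04 on the log2 scale and -0.00099 without control replicate 2. Gnas, the stimulatory G protein gene, had 0.02 ± 0.10 (SE), or 0.08 without control replicate 2, and Prkar1a, a regulatory subunit of protein kinase A, had -0.03 ± 0.11, also 0.08 without that array. The receptor kinase gene Grk5, whose product can turn off G protein-coupled receptors, was the single member with an unadjusted limma p under 0.05, at 0.0300. Its signals were 93.9, 68.9 and 73.0 in NT3 and 63.1, 46.8 and 47.7 in control, with every NT3 array above every control array. Its log2 fold change was 0.58 ± 0.23 (SE), and its adjusted p of 1.00 did not pass. Over all tested probe sets, 2.62% had every NT3 array above every control array. Gnb1, a G protein beta subunit gene, had 0.34 ± 0.25. It read 1417.1 in control replicate 2, 2797.4 and 2977.7 in the remaining controls, and its log2 fold change was -0.0027 once that array was dropped.

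Among genes known to respond to gonadotropins, only the tested ones were split evenly, with 8 higher and 8 lower of 16 tested out of 24 listed. The median was -0.02, and -0.05 to 0.11 with single arrays left out. Ptgs2, the inducible prostaglandin synthase gene, had a log2 fold change of 0.48 ± 0.27 (SE), or 0.25 without control replicate 2. Ccnd2, the cyclin D2 gene of granulosa proliferation, had 0.14 ± 0.14. Sgk1 and Rgs2 had 0.13 ± 0.13 and 0.11 ± 0.11, and both had 0.02 without control replicate 2. The list's 6 genes under the filter, named after their values were seen, were mostly lower in NT3. Areg had -1.01, Cyp11a1 -0.97, Cyp17a1 -0.66, Cyp19a1 -0.43 and Btc -0.28, while Ereg had 0.03. With no filter the list median was -0.07.

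On the nuclear receptor side, 16 of 18 listed chaperone genes were tested, 8 higher and 8 lower, with a median of 0.01. Hsp90ab1, which encodes the Hsp90 that holds unliganded steroid receptors, had -0.0058 ± 0.11 (SE), or 0.09 without control replicate 2, and the co-chaperone gene Ptges3 had 0.03 ± 0.09. Hspa4 had signals of 205.6, 175.3 and 113.8 in NT3 and 353.1, 275.3 and 257.9 in control, with no overlap, at -0.87 ± 0.23. Ppp5c, a phosphatase found in receptor complexes, had 161.9, 160.8 and 161.3 in NT3 and 177.0, 189.5 and 191.4 in control, again with no overlap, at -0.20 ± 0.13. Neither passed the test, and 3.21% of all tested probe sets had every NT3 array below every control array. Of 19 tested coregulator genes out of 23 listed, 10 were higher and 9 lower, with a median of 0.01. Ncoa3 had -0.37 ± 0.30, or -0.65 without control replicate 2, and Crebbp 0.11 ± 0.11.

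Response genes of the nuclear receptors gave medians near 0. For glucocorticoid, 17 of 22 listed genes were tested, 7 higher and 10 lower, with a median of -0.03. Per1, a clock gene induced by glucocorticoid, had signals of 43.1, 43.4 and 24.7 in NT3 and 64.9, 65.2 and 55.2 in control, with no overlap, at -0.78 ± 0.28 (SE) and an adjusted limma p of 1.00. Such a lack of overlap, with NT3 below, was found in 3.21% of all tested probe sets. For oestrogen and progesterone, 14 of 23 listed genes were tested, 9 higher and 5 lower, with a median of 0.06 that turned to -0.05 without NT3 replicate 3. Tff3 had -0.34 ± 0.19 and Igf1 0.05 ± 0.11, the second at 0.02 without control replicate 2. Ihh, a hedgehog ligand gene that progesterone induces in the mouse uterus and that rodent granulosa cells express, lay under the filter and is named after its values were seen. Its signals were 3.7, 3.0 and 6.0 in NT3 and 23.8, 22.8 and 28.5 in control. In the fit its log2 fold change was -2.62 ± 0.54 with an adjusted limma p of 1.00 in the fit with no filter, and -1.02 with 16 added to each signal. The list's 7 genes under the filter went both ways. Besides Ihh, Areg and Gata2 were lower, at -1.01 and -0.44. Tff1, Hand2, Snap25 and Hbegf were higher, at 1.14, 0.79, 0.15 and 0.05.

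**Figure D4:**
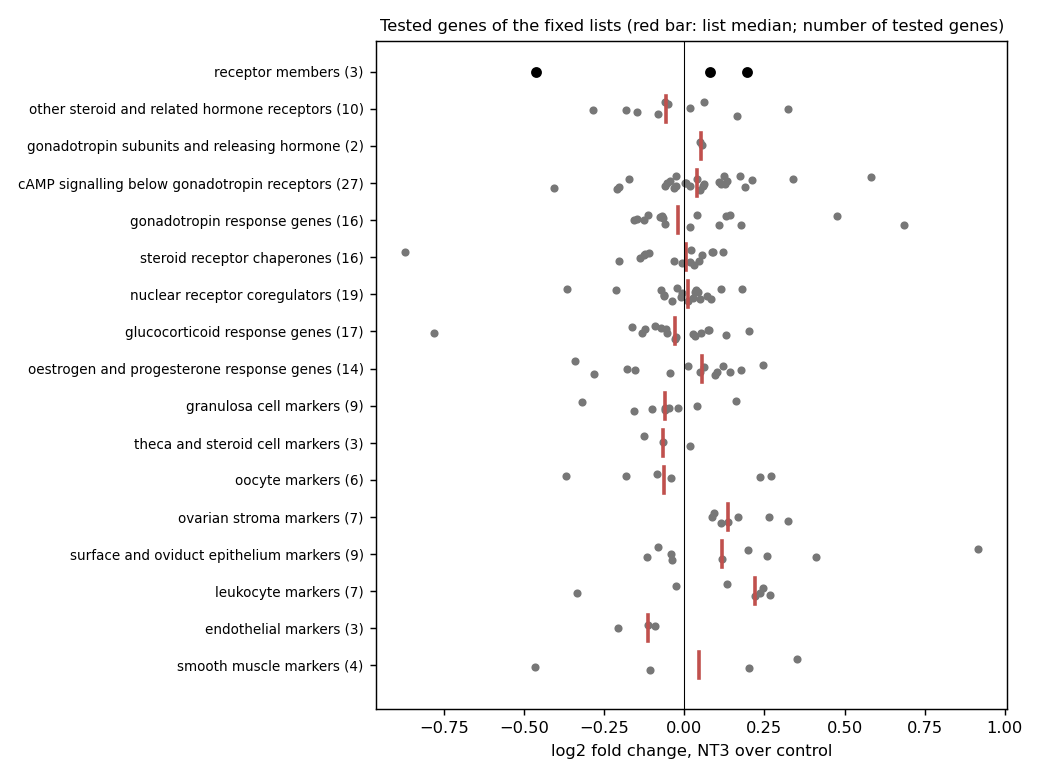
Log2 fold change of NT3 over control for each tested gene of the fixed lists (grey points), the list medians (red bars) and the 3 tested receptor probe sets (black, top row). List medians lie between -0.11 and 0.22, and no point passed the adjusted test.

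Of the markers of other cell types, none was listed at 0 on any array, but a signal above 0 does not by itself show that a transcript was detected. All 9 granulosa markers were tested, 2 higher and 7 lower in NT3, and the median was -0.06 on the log2 scale and -0.23 without control replicate 2, and turned to 0.05 without control replicate 3. Their summed signals were 4831 to 6110 in NT3 and 5344 to 5887 in control. Of 6 theca and steroid cell markers, 3 were tested, and Cyp11a1, Cyp17a1 and Insl3 lay under the filter. The 3 had a median of -0.07, which turned to 0.24 without NT3 replicate 2. Those under the filter had log2 fold changes of -0.97 (Cyp11a1), -0.66 (Cyp17a1) and -0.92 (Insl3). With no filter the median over all 6 was -0.39. The list had sums of 652.5 to 1101 in NT3 and 846.8 to 1051 in control. Cyp11a1, the side-chain cleavage enzyme gene of steroid cells, was at 18.9, 15.4 and 11.1 in NT3 and 28.0, 31.0 and 27.8 in control, named after its values were seen. The sums of both lists overlapped between the groups. Such a sum mostly follows its highest signals and could not show a change of its low markers. In the theca list the highest was Hsd3b1, at 368.1 in NT3 replicate 2 and 804.8 in NT3 replicate 3. The markers' part in the Lhcgr and Esr2 values was not tested.

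All 7 genes listed as ovarian stroma markers were higher, with a median of 0.14, or 0.09 without control replicate 2. Their sums were 18348 to 19769 in NT3 and 16319 to 17783 in control. Without control replicate 2, Dcn, the highest signal of the list, turned from 0.17 to -0.0042, while the others stayed higher. Lum, a stromal proteoglycan gene, had 1766.1 in control replicate 2 and 2710.8 and 2812.6 in the other controls. Surface and oviduct epithelium markers, which include sites of Esr1 and Pgr, had a median of 0.12, with 5 higher and 4 lower and sums of 8095 to 12120 in NT3 and 7644 to 12020 in control. That median was 0.22 without control replicate 2 and turned to -0.15 without NT3 replicate 2. Oocyte markers had a median of -0.06, with 2 higher and 4 lower. Their sums were 9092 to 11780 in NT3 and 10732 to 11716 in control. The oocyte median was -0.35 without control replicate 2 and turned to 0.05 without NT3 replicate 2. Leukocyte, endothelial and smooth muscle markers had medians of 0.22, -0.11 and 0.05, over 7, 3 and 4 tested genes. Without control replicate 2 the leukocyte median was 0.13 and the smooth muscle median 0.24. The smooth muscle median ranged from -0.12 to 0.27 over single arrays left out. The endothelial median was -0.22 without NT3 replicate 1 and -0.03 without control replicate 3. Over all 16 lists limma called 0 genes in either direction. Of the 160 tested list genes, 4 had an unadjusted limma p under 0.05, namely Grk5, Hspa4, Per1 and the tight junction gene Cldn3, beside 1.29% of all tested probe sets. The annotation held 196 list genes, and those beyond the 160 tested lay under the filter. Among them, Ihh and Cyp11a1 had such a p in the fit with no filter, both lower in NT3. Over all 12417 probe sets under the filter that share was 2.71%.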

How the data were processed

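RNA of 6 rat ovary cultures was measured on 1-colour Affymetrix arrays from biotin-labelled cRNA. The authors deposited linear intensities, made with MAS5 (per the submitters' processing notes, which give no version), for 31099 probe sets. The 57 array controls among them were left out of the tests. All 6 arrays had the same mean signal, 210.1, once 2% was trimmed from either end. Signals were taken to log2 with a floor of 0.1, the lowest positive signal. NT3 was compared with control by limma 3.58.1 in R 4.3.3 with an intensity trend, 2-sided, with Benjamini-Hochberg adjustment at 0.05 over 18625 probe sets above the 40th percentile, mean log2 5.37. The fit was tested on simulated data.

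Probe sets were named through the platform annotation, where 20826 had 1 symbol, 436 several and 9780 none, and 20764 gene identifiers were found in RefSeq's GRCr8 table. Each gene is led by its probe set with the highest mean log2 signal. The members, the 16 lists and the tests were chosen with earlier results of these data known. Of 214 list genes, 196 were in the annotation and 160 tested. Examples came from the 3 highest signals and 2 lowest p-values of each list, and genes named otherwise are said to be. The arrays' number limits the precision.

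The groups share replicate numbers in the titles. Deviations from group means correlated at 0.230, 0.247 and 0.222 for pairs 1, 2 and 3. Between arrays of unlike number they correlated at -0.246 to 0.029. These values are tied to each other, since the deviations cancel within each group. The numbers may pair the samples, on evidence from the data alone. The main fit nevertheless held no block, and its SEs, intervals and p-values leave such a pairing out. The replicate block and the other alternatives are given at the end.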

Additional observations from a re-analysis of the deposited data

How the results depend on the processing

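No receptor probe set was called by limma under any of 15 alternatives. Over all probe sets the count of adjusted calls was 0 in 14 of them and 6 when a block for the replicate number was fitted with both arrays numbered 2 left out, a fit on 2 pairs. It was 0 with any single array left out. The replicate block with all arrays changed no call (0 called) and gave log2 fold changes equal to those of the fit without it. With the block the SE was 0.54 for Esr1 and 0.73 for Esr2. Without the intensity trend it was 0.21 for Esr1 and 0.50 for Esr2, also with 0 called. Counts at an unadjusted p under 0.05 were 240 as reported and 401 with the block, 752 with no filter, 123 at the 60th percentile, 377 without the trend, 585 with array weights, 656 without control replicate 2, 420 without control replicate 3 and 958 with the block and both arrays numbered 2 left out. The directions of Esr1, Esr2, Pgrmc1 and the tested Lhcgr probe set held under every alternative run on them. Esr1 ranged from -1.21 to -0.46 and Esr2 from -2.06 to -0.56, the smallest sizes with an offset of 16. Directions turned for the tested Nr3c1 probe set, at -0.0037 with the block and no arrays numbered 2. They turned for 1368222_at of Nr3c1, at -0.33 in that fit, -0.067 with array weights and -0.13 without control replicate 2. They turned for 1369033_at of Lhcgr, at -0.14 without NT3 replicate 1 and -0.21 without control replicate 3, and for Pgr, at 0.14 without NT3 replicate 3 and 0.076 without control replicate 1. With single arrays left out, these 3 probe sets ranged from -0.13 to 0.69, from -0.21 to 0.48 and from -0.34 to 0.14, in that order. The cause was not tested. At the 60th percentile the Lhcgr probe set was not tested. Signals near the lower end of the scale limit Esr1, Esr2, Pgr and both second probe sets.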
